A study of Mus musculus with 79 samples.

Results

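The 9 genes described here are Nr3c1 (gene ID 14815), Hsd11b1 (15483), Fkbp5 (14229), Tsc22d3 (14605), Zbtb16 (235320), Sgk1 (20393), Dusp1 (19252), Klf9 (16601) and Klf15 (66277). They were taken by gene symbol from a table of 74693 rows, in which each symbol matched 1 row, and all 9 were among the 14873 genes tested. RNA was sequenced from caudal vertebrae (CV), which carry stable marrow adipocytes, from lumbar vertebrae (LV), used in the study as bone without marrow fat, and from inguinal white adipose tissue (iWAT). There were 79 libraries from 51 mice, with CV of 18 females and 33 males, LV of 18 of the same females and iWAT of 10 of them. The design text deposited with the series gives the mice as 4 to 5 months old, where the legends of the study give ranges that reach somewhat older, and the mice were of mixed SJLxC57BL6 background, single housed and pair-fed, and all received an intracerebroventricular (ICV) infusion by osmotic pump for 9 days, of either PBS or leptin at 100 ng per h. WT mice were BMAd-Pnpla2+/+ littermates of BMAd-Pnpla2-/- (cKO) mice, in which the lipase gene Pnpla2 (ATGL) was deleted in bone marrow adipocytes, with a driver that is not given in the sources used here. The CV groups were female WT with PBS (n = 5) or leptin (n = 5), female cKO with PBS (n = 4) or leptin (n = 4), male WT with PBS (n = 5) or leptin (n = 8), and male cKO with PBS (n = 5) or leptin (n = 4). A further 11 male WT mice carried a subcutaneous insulin pellet, 5 with PBS and 6 with leptin. LV came from the 18 females of the CV groups, and iWAT from all 10 of the female WT mice.

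Glucocorticoids enter cells and bind the glucocorticoid receptor, which is encoded by Nr3c1, is held in the cytoplasm by heat shock protein chaperones and moves to the nucleus once bound. The enzyme encoded by Hsd11b1 regenerates active glucocorticoid from its inert form inside adipose tissue, bone and liver, and Fkbp5 encodes a co-chaperone that lowers the receptor's affinity for its ligand. The other genes are widely used readouts of receptor activity, although several also answer to cAMP, insulin, stress kinases or the daily clock. Tsc22d3 encodes the anti-inflammatory factor GILZ, Zbtb16 the zinc finger repressor PLZF, Sgk1 a kinase that acts on ion transport and survival, Dusp1 a phosphatase that turns off MAP kinases, and Klf9 and Klf15 transcription factors, the latter a regulator of amino acid and lipid use in muscle and fat.

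RefSeq promoter windows of 300 bases (250 before and 50 after a start site, GRCm38.p6) were at hand for 7 of the 9 genes, in 14 entries. Both strands were searched for the full palindrome of the glucocorticoid response element (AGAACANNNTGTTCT), for its half-site (AGAACA, which the full palindrome also holds) and for the cAMP response element (TGACGTCA), in a search chosen after the expression values had been seen. The full palindrome was in 1 of the 14 entries, the half-site in 4 and the cAMP response element in 1, against 0.00913%, 19.0% and 1.79% of all 32851 promoters. Sgk1 alone has 6 of the 14 entries, so they are not independent, and the half-site was in entries of Sgk1 and Tsc22d3 only. Below, 3 of the windows are shown for the genes with the widest ranges of TPM in CV. Each was picked as an entry that holds a match, and a different motif is marked in each. They run 5′ to 3′ on the gene's own strand, end at or before the start site and are free of annotated exons. The Sgk1 window (chr10:21993640-21993889, plus strand) has the full palindrome in capitals, at its bases 62 to 76. In the Dusp1 window (chr17:26508520-26508722, minus strand) the capitals mark the cAMP response element, at bases 108 to 115. The Tsc22d3 window (chrX:140600660-140600772, minus strand) carries the half-site as its reverse complement in capitals, at bases 66 to 71. A match describes these letters only and was not tested as a binding site.
Sgk1: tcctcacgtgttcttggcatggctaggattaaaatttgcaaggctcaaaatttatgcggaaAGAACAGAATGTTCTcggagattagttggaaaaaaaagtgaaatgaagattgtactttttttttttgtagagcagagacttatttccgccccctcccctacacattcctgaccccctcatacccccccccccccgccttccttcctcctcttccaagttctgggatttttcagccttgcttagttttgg
Dusp1: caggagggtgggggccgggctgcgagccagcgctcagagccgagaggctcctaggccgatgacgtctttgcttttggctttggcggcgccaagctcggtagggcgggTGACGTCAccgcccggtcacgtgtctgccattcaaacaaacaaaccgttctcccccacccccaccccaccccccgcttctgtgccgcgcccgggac
Tsc22d3: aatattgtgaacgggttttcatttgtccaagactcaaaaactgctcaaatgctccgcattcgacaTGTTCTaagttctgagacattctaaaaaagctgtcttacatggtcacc

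CV libraries held 16100377 to 19364106 counts on genes, iWAT libraries 17638318 to 19100698 and LV libraries 28717516 to 29757254. None of the 711 values of the 9 genes was 0, and the lowest was 0.41 TPM (transcripts scaled by length and to the same total in each library), for Zbtb16 in an LV library. Summed skeletal muscle markers, which include Acta1 and Ckm, reached 18934 to 79575 TPM in CV, 1075 to 3851 TPM in LV and 10.9 to 4778 TPM in iWAT, so the CV libraries carried much muscle RNA. Summed adipocyte markers, which include Adipoq and Plin1, ranged from 18703 to 71513 TPM in iWAT and from 333 to 735 TPM in LV, whereas erythroid markers reached 135870 to 274850 TPM and neutrophil markers 129810 to 259780 TPM in LV. Pnpla2 had 131 to 266 TPM in female cKO CV and 209 to 405 TPM in female WT CV, and these ranges overlapped. CV also hold cells in which the gene was not deleted. Mouse numbers in the labels form series (100s, 300s and 400s, 600s, 5000s), and all 11 insulin mice and no others carry a number in the 300s or 400s. In 4 CV libraries Dusp1 had 183.02 TPM or more, against at most 75.01 TPM in the other CV libraries. These were male WT leptin replicates 6, 7 and 8 and male WT leptin with insulin replicate 6. The main comparisons of the 9 genes that rest on these 4 libraries are given with and without them, the latter for selected genes. Other fits, such as DESeq2 or those with a covariate or block, were made only with them. Results of gene lists and correlations over CV were computed only with them.

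In female WT mice with PBS the receptor gene Nr3c1 (GRCm38.p6, chr18:39410545-39519421) was highest in CV and the enzyme gene Hsd11b1 (chr1:193221640-193264045) was highest in iWAT. Nr3c1 had 50.8 ± 7.24 TPM in CV (SD, n = 5), 32.3 ± 2.53 TPM in iWAT and 13.4 ± 1.81 TPM in LV, with no overlap between tissues. Hsd11b1 had 397 ± 67.0 TPM in iWAT, 59.9 ± 2.61 TPM in LV and 51.5 ± 8.76 TPM in CV, and of these tissues LV and CV overlapped. The co-chaperone gene Fkbp5 (chr17:28398753-28486149) had 46.2 ± 14.5 TPM in iWAT, 37.1 ± 9.59 TPM in CV and 22.4 ± 5.50 TPM in LV, and neighbouring tissues overlapped in that order.

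Among the target genes, Tsc22d3 (chrX:140539528-140600522) was the most abundant per transcript length, with 458 ± 80.7 TPM in CV, 145 ± 33.7 TPM in iWAT and 83.4 ± 19.9 TPM in LV, where iWAT and LV overlapped. Sgk1 (chr10:21882184-21999903) had 86.5 ± 9.42 TPM in CV, 44.3 ± 6.23 TPM in iWAT and 21.5 ± 3.02 TPM in LV, with no overlap. Dusp1 (chr17:26505591-26508472) had 61.1 ± 9.98 TPM in CV, 51.1 ± 16.4 TPM in iWAT and 20.9 ± 4.21 TPM in LV, and CV and iWAT overlapped. These 3 genes shared the order CV, iWAT, LV, as did Klf9 (chr19:23141226-23168129), a transcription factor gene with 71.6 ± 6.76 TPM in CV, 44.8 ± 5.93 TPM in iWAT and 5.75 ± 0.905 TPM in LV. Klf15 (chr6:90461043-90491803) instead led in iWAT, at 70.1 ± 9.83 TPM, against 37.1 ± 2.46 TPM in CV and 3.20 ± 0.510 TPM in LV. Zbtb16 (chr9:48651797-48836225), which encodes a zinc finger repressor, had 29.8 ± 13.4 TPM in iWAT, 20.0 ± 4.89 TPM in CV and 1.04 ± 0.299 TPM in LV, and its values in iWAT and CV overlapped. Klf9 did not overlap between any of the tissues, and neither did Klf15.

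**Figure D1:**
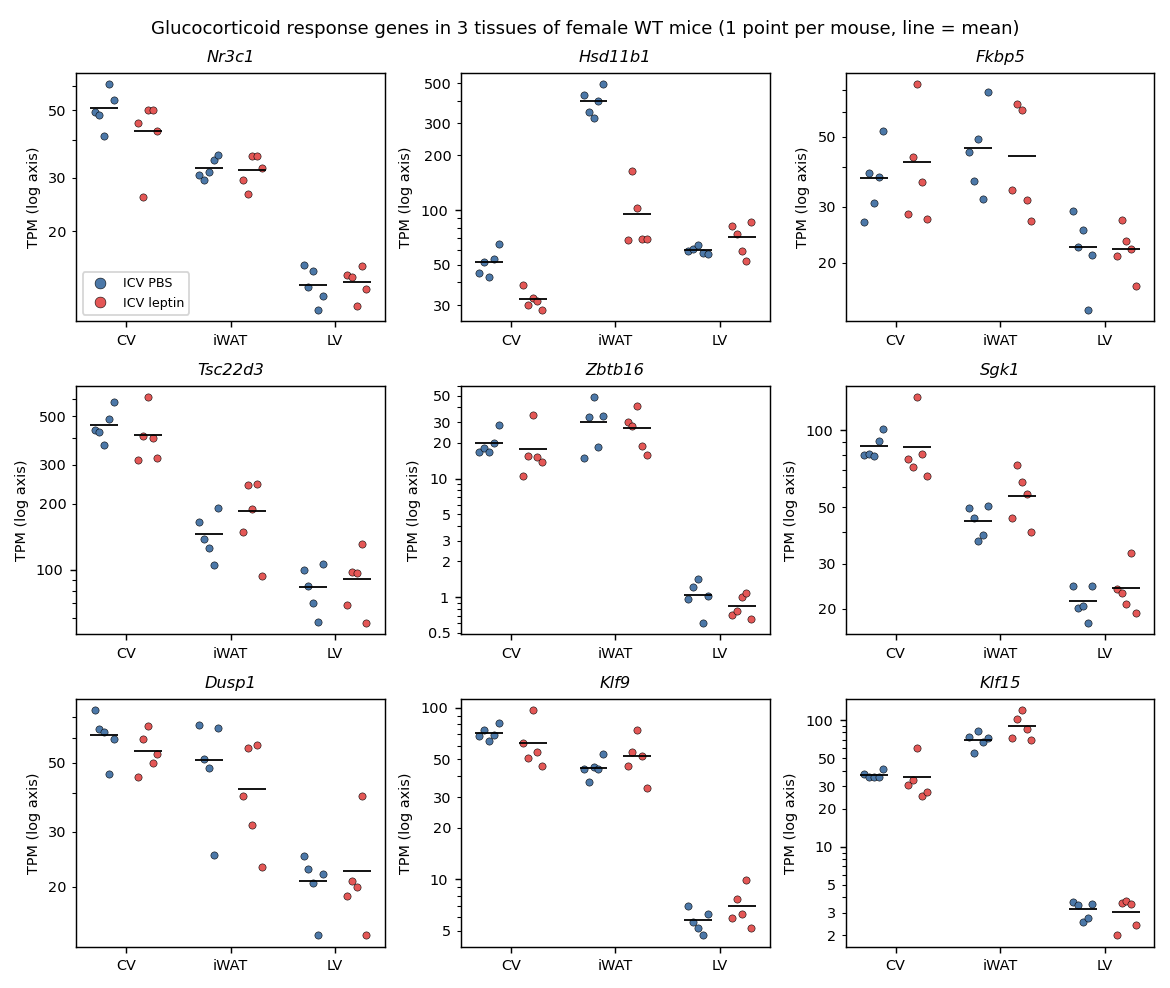
TPM (log axis) of the 9 genes in CV, iWAT and LV of female WT mice with PBS or leptin, with 1 point per mouse and a line at each group mean (n = 5 per group). Hsd11b1 stands near 397 TPM in iWAT with PBS and near 94.9 TPM with leptin, and Zbtb16, Klf9 and Klf15 lie far lower in LV than in the other tissues.

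Tissues were compared in these 5 PBS mice with edgeR's quasi-likelihood test, where genes are called at an adjusted p below 0.05 (Benjamini-Hochberg over the 14873 genes) if their log2 fold change is also 0.5 or more in size. Between CV and LV, 7 of the 9 genes were called, where 66.6% of all tested genes were. Zbtb16 was higher in CV by a log2 fold change of 3.16 (SE 0.181, edgeR adjusted p = 4.085e-09), Klf9 by 2.54 and Klf15 by 2.46, while Tsc22d3 (1.39), Sgk1 (0.91) and Nr3c1 (0.83) were higher by less. Hsd11b1 was lower in CV, by -1.36 on the log2 scale (SE 0.0883, edgeR adjusted p = 1.3697e-08). Fkbp5 was at -0.36 and Dusp1 at 0.45, below the minimum fold change. The size of these differences depends on the scale, and of the 9 genes Fkbp5 alone, which was not called, also changed direction. Erythroid and neutrophil transcripts fill much of the LV libraries. The median log2 difference of all tested genes was 0.02 after TMM normalization and 0.87 on log2(TPM + 1), and on the latter scale Fkbp5 was higher in CV, by 0.71, while Hsd11b1 was lower there by only -0.23.

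Between iWAT and CV, 6 of the 9 genes were called, where 50.5% of all tested genes were. Hsd11b1 was higher in iWAT by 3.11 on the log2 scale (SE 0.126, edgeR adjusted p = 3.1185e-09), Klf15 by 1.02 and Zbtb16 by 0.75. Tsc22d3 was lower in iWAT, at -1.52, as were Sgk1 at -0.80 and Klf9 at -0.52. The call of Zbtb16 was lost without PBS replicate 3 (0.46, edgeR adjusted p = 0.160) or replicate 2 (0.66, adjusted p = 0.111), and that of Klf9 without replicate 2 (-0.45). In iWAT against LV, 66.5% of all tested genes and 4 of the 9 were called, all higher in iWAT, namely Zbtb16 (3.92), Klf15 (3.50), Klf9 (2.03) and Hsd11b1 (1.77). On log2(TPM + 1), limma called all 9 genes higher in iWAT than in LV, Tsc22d3 among them at 0.79, which had been at -0.12 in edgeR. The median of all tested genes was itself 0.71 on that scale, against -0.01 in edgeR. The share of all tested genes that limma called is not given here, so the 9 are not set apart by this. The 3 tissues came from the same mice, and adding the mouse as a block changed none of these counts by more than 1.5 times.

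ICV leptin lowered Hsd11b1 in the CV of female WT mice, the only 1 of the 9 genes called there. With PBS, Hsd11b1 had 45.0, 51.5, 42.7, 53.5 and 65.0 TPM, and with leptin 38.6, 30.01, 32.8, 31.7 and 28.2 TPM. Every leptin mouse lay below every PBS mouse. The log2 fold change was -0.70 (SE 0.103, edgeR adjusted p = 0.00453), in a comparison where 5.04% of all tested genes were called. Among the mice numbered in the 100s alone the difference was -0.44 (edgeR adjusted p = 0.207), so that the call was lost there, and among those in the 600s it was -0.94 and called. Of adipocyte markers 4 of 8 were called lower with leptin, and their summed level was 11042 to 14217 TPM with PBS and 6042 to 10322 TPM with leptin, with none at 0. Of erythroid markers 3 of 7 were called higher and 1 lower (2326 to 7051 TPM with PBS, 5754 to 24907 TPM with leptin), of osteoblast and osteocyte markers 3 of 9 higher (2760 to 7110 and 5728 to 17438 TPM), and of macrophage markers 2 of 7 higher. The part of these cells in the result was not tested, and in bulk tissue fewer cells of a type and less RNA per cell cannot be told apart. Skeletal muscle markers summed to 23715 to 51563 TPM with PBS (median 49175) and 18934 to 44303 TPM with leptin (median 20483). Of these markers 0 of 10 were called, at a median log2 fold change of -0.61. Values of the fit with them as a covariate are not given here for females.

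None of the target genes was called in female WT CV. Tsc22d3 had 370 to 582 TPM with PBS and 314 to 610 TPM with leptin, at a log2 fold change of -0.20 (SE 0.173). Sgk1 was at -0.04 (SE 0.147), Fkbp5 at 0.14, Klf15 at -0.12, Zbtb16 at -0.19, Dusp1 at -0.19 and Klf9 at -0.24, and in each the groups overlapped. One leptin mouse, replicate 3, lay above the others in Zbtb16 (34.2 TPM), Sgk1 (135 TPM), Klf15 (60.1 TPM), Tsc22d3 (610 TPM), Fkbp5 (73.0 TPM) and Klf9 (96.9 TPM). The receptor gene Nr3c1 was at -0.28 (SE 0.122, edgeR adjusted p = 0.172).

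In the iWAT of the same female WT mice, Hsd11b1 fell further than in CV. Its level was 428, 348, 321, 397 and 491 TPM with PBS and 68.0, 164.96, 103, 69.4 and 69.6 TPM with leptin, again without overlap. The log2 fold change was -1.97 (SE 0.247, edgeR adjusted p = 0.000464), in a comparison where 15.1% of all tested genes were called. H6pd, whose product makes the NADPH that the Hsd11b1 enzyme uses in the endoplasmic reticulum, was called lower too, at -1.04 on the log2 scale, with 69.0 to 123 TPM with PBS and 26.9 to 56.2 TPM with leptin. Summed adipocyte markers were 53072 to 71513 TPM with PBS and 18703 to 47100 TPM with leptin, 3 of 8 were called lower and none was at 0. Erythroid markers summed to 2712 to 3637 TPM with PBS and 285 to 1523 TPM with leptin, with 5 of 7 called lower, and the part of either list in the result was not tested. Klf15 had 55.3 to 81.9 TPM with PBS and 70.0 to 120 TPM with leptin, at 0.43 (edgeR adjusted p = 0.0656), and Sgk1 had 37.0 to 50.7 TPM and 39.9 to 72.9 TPM, at 0.41 (adjusted p = 0.0814). Neither was called, but without leptin replicate 5, the leptin mouse with the lowest values of both, Sgk1 was at 0.50 (edgeR adjusted p = 0.0391) and Klf15 at 0.50 (adjusted p = 0.0470), and 3 of the 9 genes were called. Tsc22d3 was at 0.42, Klf9 at 0.32, Nr3c1 at 0.07, Fkbp5 at 0.00 (0.0025 before rounding), Zbtb16 at -0.07 and Dusp1 at -0.21.

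In LV, 0 of the 9 genes were called with leptin in WT or cKO females, where 0% of all tested genes were called in either. Hsd11b1 had 57.6 to 63.8 TPM with PBS and 52.6 to 85.8 TPM with leptin in WT females (0.20, SE 0.131). None of the 9 had an unadjusted p below 0.05 in WT females, where 14.7% of all tested genes did. In cKO females 8.95% of all tested genes and 3 of the 9 did, which were Klf9 (0.71), Fkbp5 (0.55) and Tsc22d3 (0.52), all higher with leptin with adjusted p from 0.501 to 0.514. Leptin replicate 4 was the highest cKO mouse in each, with 148 TPM for Tsc22d3 and 14.5 TPM for Klf9.

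The leptin effect on Hsd11b1 itself differed between tissues of female WT mice. The interaction of leptin and tissue was -1.30 on the log2 scale for iWAT against CV (SE 0.282, edgeR adjusted p = 0.00439), where 11.3% of all tested genes and 1 of the 9 were called. For LV against CV it was 0.88 (SE 0.181, adjusted p = 0.0110), where 2.53% of all tested genes and 1 of the 9 were called. With the mouse that gave both tissues as a block, Klf15 (0.55, edgeR adjusted p = 0.0267) and Klf9 (0.51, adjusted p = 0.0246) were also called between iWAT and CV, which makes 3 of the 9. Without the block Klf15 was at 0.51 (adjusted p = 0.215) and Klf9 at 0.52 (adjusted p = 0.177).

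**Figure D2:**
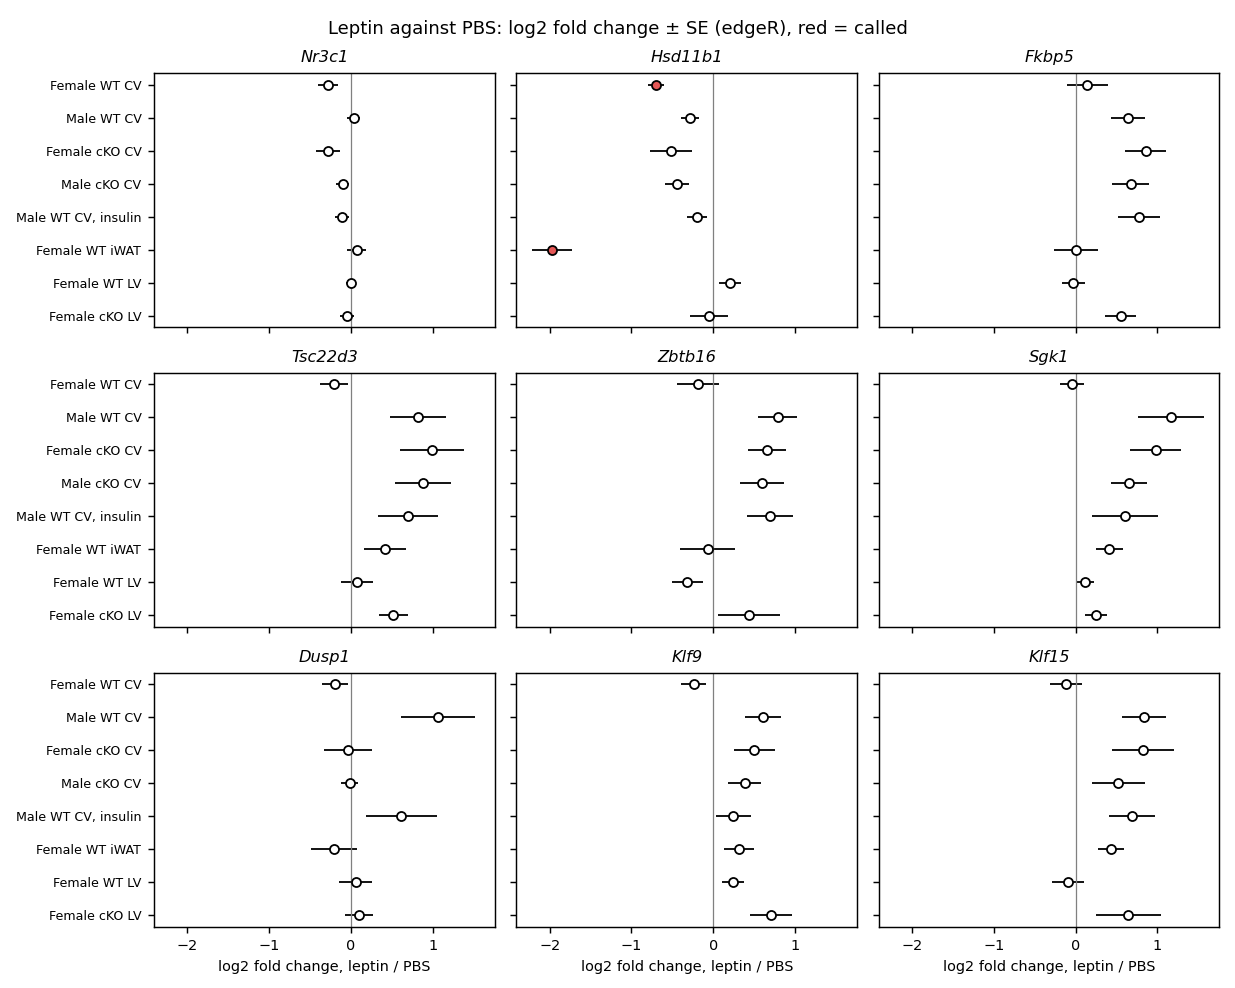
Log2 fold change of leptin against PBS (edgeR, bars ± SE) of the 9 genes in 8 comparisons, with called genes in red. Red points appear only for Hsd11b1, in female WT CV (-0.70) and in female WT iWAT (-1.97).

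In male WT CV, 0 of the 9 genes were called with leptin, where 1.75% of all tested genes were, but 8 of the 9 had an unadjusted p below 0.05, against 19% of all tested genes. Of these, 7 were higher and Hsd11b1 lower with leptin. Sgk1 was at a log2 fold change of 1.17 (SE 0.402, edgeR adjusted p = 0.131), Dusp1 at 1.07 (SE 0.451, adjusted p = 0.214), Klf15 at 0.83 (adjusted p = 0.115), Tsc22d3 at 0.82 (adjusted p = 0.210), Zbtb16 at 0.79 (adjusted p = 0.0848), Fkbp5 at 0.64 (adjusted p = 0.120) and Klf9 at 0.61 (adjusted p = 0.148). Hsd11b1 had 54.8 to 72.1 TPM with PBS and 36.3 to 67.4 TPM with leptin, at -0.28 (adjusted p = 0.189), and Nr3c1 was at 0.03. DESeq2 called 3 of these genes (Zbtb16, Klf15 and Fkbp5, adjusted p from 0.0148 to 0.0369), a fit with the mouse number series as a covariate called Klf15, and 1 fit of all CV groups called Sgk1. The shares of all tested genes called in these fits are not given here, so these counts cannot be set against them. With the replicate number as a block Fkbp5 was called (0.55, edgeR adjusted p = 0.0427), but these numbers belong to different mice in the PBS and leptin groups.

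The spread within the male leptin group was wide, and 3 mice stood apart. Sgk1 had 65.2 to 84.9 TPM in the 5 PBS males. In the 8 leptin males it had 84.9, 125, 101, 85.7, 66.7, 287, 329 and 298 TPM, in replicate order. Replicates 6, 7 and 8, the only WT leptin males numbered in the 600s, were far above the rest. Dusp1 followed the same split, with 32.9 to 69.4 TPM with PBS, 41.1 to 66.7 TPM in leptin replicates 1 to 5 and 197, 184.28 and 224 TPM in replicates 6, 7 and 8. Tsc22d3 had 763, 960 and 1020 TPM in those 3 mice, against 243 to 572 TPM in the other 5 leptin males. Klf9 had 83.9, 114 and 130 TPM in them, and Klf15 58.8, 70.8 and 79.6 TPM. Replicate 2 came near them, with 89.0 TPM of Klf9, above replicate 6, and 48.6 TPM of Klf15. Fkbp5 did not separate them, with 38.2, 49.03 and 87.6 TPM in replicates 6, 7 and 8 and 85.8 TPM in replicate 2. Zbtb16 had 6.96 TPM in replicate 6, the lowest of the leptin males, and 22.6 TPM in replicate 8, the highest.

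Immediate-early genes, which include Fos, Egr1 and Nr4a1 and answer within minutes to many stimuli, were also high in these 3 libraries, at a summed 728, 776 and 1322 TPM, and at 676 TPM in leptin with insulin replicate 6, against at most 378 TPM in the other CV libraries. Their part in the result was not tested. Dusp1 had 32.9 and 36.2 TPM in the 600s males with PBS and 49.9 to 65.2 TPM in the 600s females with leptin. The 3 WT leptin males of the 600s were the 3 high ones. Male cKO leptin replicates 3 and 4 also carry 600s numbers and were not high. The 4 male cKO leptin mice had 47.2 to 54.3 TPM of Dusp1. Within WT males of the 100s, 0 of the 9 were called (0.222% of all tested genes). Sgk1 was at 0.17, Tsc22d3 at 0.14, Klf9 at 0.22 and Dusp1 at -0.28. Zbtb16 (0.68), Fkbp5 (0.52), Klf15 (0.43) and Hsd11b1 (-0.42) lay farther from 0 there. Within WT males of the 600s, 5 of the 9 were called, with 2 PBS mice against 3 leptin mice and 3.85% of all tested genes called. These were Dusp1 (2.52), Sgk1 (2.08), Tsc22d3 (1.504), Klf15 (1.28) and Klf9 (1.09). With the 4 libraries that stood apart left out, 0 of the 9 and 1.55% of all tested genes were called, and Sgk1 was at 0.21, Dusp1 at 0.00 (-0.0023 before rounding), Tsc22d3 at 0.13, Klf9 at 0.22 and Klf15 at 0.33, whereas Zbtb16 was at 0.62 (edgeR adjusted p = 0.0833), Fkbp5 at 0.55 (adjusted p = 0.172) and Hsd11b1 at -0.39 (adjusted p = 0.0823). Markers of other cells moved as well, and their part was not tested beyond the fit with muscle markers given below. Erythroid markers summed to 2101 to 5881 TPM with PBS and 7225 to 19122 TPM with leptin (4 of 7 called higher), and 4 of 8 adipocyte markers were called lower, while 0 of 7 macrophage markers were called but all 7 had an unadjusted p below 0.05, higher with leptin. For skeletal muscle markers 2 of 10 were called lower, at a summed 27453 to 51184 TPM against 50208 to 61954 TPM with PBS. With their mean as a covariate none of the 9 was called, and Sgk1 was at 0.38, Dusp1 at 0.20 and Tsc22d3 at 0.22. Values of the other genes in that fit are not given here. The muscle markers themselves differed between leptin and PBS, so this fit cannot separate muscle content from leptin.

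**Figure D3:**
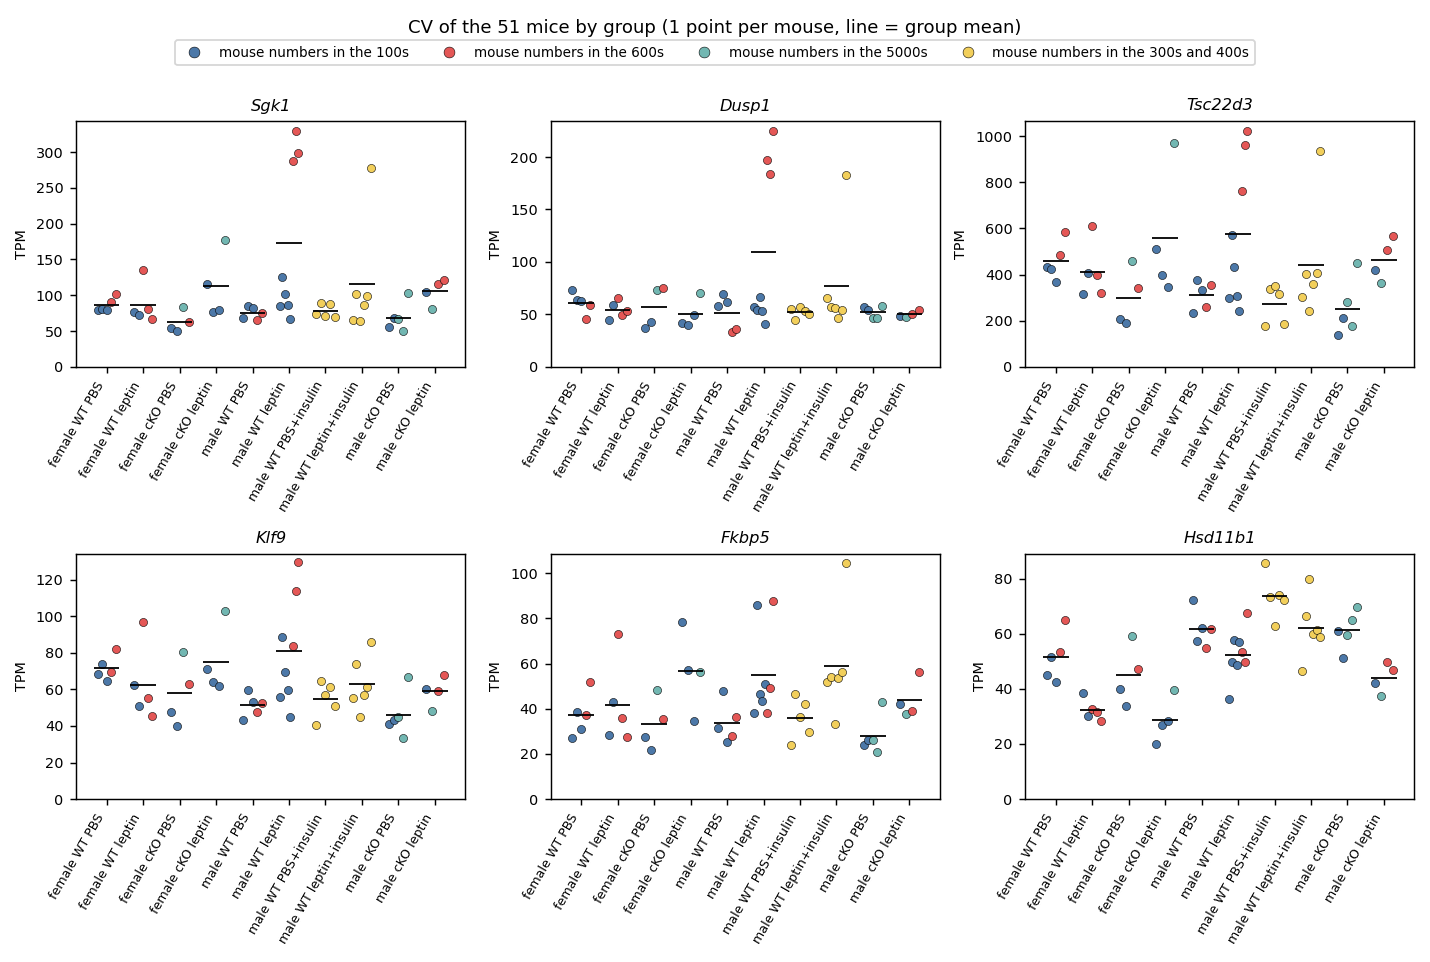
TPM of Sgk1, Dusp1, Tsc22d3, Klf9, Fkbp5 and Hsd11b1 in the 10 CV groups, with 1 point for each of the 51 mice, coloured by the series of the mouse number, and a line at each group mean. Male WT leptin replicates 6, 7 and 8 and leptin with insulin replicate 6 stand above all other mice for Sgk1 (278 to 329 TPM) and Dusp1 (183.02 to 224 TPM).

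In the CV of cKO mice Tsc22d3, Sgk1, Fkbp5 and Zbtb16 had positive leptin values in both sexes without being called. In female cKO CV, 0.0269% of all tested genes and 0 of the 9 were called, while 11.6% of all tested genes and 4 of the 9 had an unadjusted p below 0.05. These 4 were Tsc22d3 (0.99, SE 0.390, edgeR adjusted p = 0.390), Sgk1 (0.98), Fkbp5 (0.85) and Zbtb16 (0.65), and Klf15 was at 0.83, Klf9 at 0.50, Hsd11b1 at -0.51, Nr3c1 at -0.28 and Dusp1 at -0.04. Tsc22d3 had 208, 189.2, 458 and 342 TPM with PBS and 512, 398, 345 and 972 TPM with leptin, and the groups overlapped. The low PBS pair were both mice of the 100s, and the leptin mouse at 972 TPM was the only 1 of the 5000s in its group.

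In male cKO CV, 0.188% of all tested genes and 0 of the 9 were called, while 9.66% of all tested genes and 5 of the 9 had an unadjusted p below 0.05. Tsc22d3 had 139, 212, 281, 177.96 and 449 TPM with PBS and 420, 364, 507 and 568.4 TPM with leptin, where PBS replicate 5 alone reached into the leptin range (0.88, SE 0.343, edgeR adjusted p = 0.420). Fkbp5 was at 0.67, Sgk1 at 0.65 and Zbtb16 at 0.60. Hsd11b1 had 51.3 to 69.8 TPM with PBS and 37.4 to 49.8 TPM with leptin, with no overlap, but its value of -0.44 (edgeR adjusted p = 0.337) lay below the minimum fold change and the threshold. Dusp1 was at -0.02 (SE 0.0989), with 47.2 to 54.3 TPM in all 4 leptin mice, so none of them resembled the high male WT libraries. Klf15 was at 0.52, Klf9 at 0.39 and Nr3c1 at -0.10.

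The other genes of the pathway were read from lists with the same test. Of 12 receptor partners and genes of steroid supply, Nr3c2, which encodes the mineralocorticoid receptor, was called lower in female WT CV (-0.50), and Hsd11b2, whose enzyme inactivates glucocorticoid, was called higher in male WT CV (1.27, from 0.250 to 0.730 TPM with PBS to 0.790 to 1.95 TPM with leptin). No gene of that list was called in cKO CV or in LV. In iWAT, H6pd was called lower and Hspa8, a chaperone gene, higher (0.63). Of 22 other glucocorticoid-responsive genes, 2 were called higher in male WT CV, Glul (0.70), which encodes glutamine synthetase, and Trim63 (0.69), which encodes a ubiquitin ligase of muscle, and 0 in female WT CV, beside the 1.75% and 5.04% of all tested genes called there. The median log2 fold change of those 22 was 0.70 in male WT, 0.67 in female cKO, 0.55 in male cKO and 0.11 in female WT CV. In that order, the median of all tested genes was 0.00 (0.00051), 0.02, 0.00 (0.0018) and -0.01. The male WT value includes the leptin libraries that stood apart, and none was computed without them. Summed over the 22 genes, male WT leptin libraries reached 8023 TPM and male cKO leptin libraries 3511 TPM. In iWAT, where 15.1% of all tested genes were called and 1077 of 14873 were called higher, 5 of the 22 were called higher, led by Rgs2 (2.95), Ddit4 (1.21) and Cebpb (0.80), with a median of 0.26 against 0.07 for all tested genes.

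Of 10 immediate-early genes, 5 were called higher in iWAT (beside the same 1077 of 14873), led by Nr4a1 (1.42), Egr1 (0.75) and Zfp36 (0.64), and 0 in any CV comparison of leptin with PBS. Their median was 0.96 in male WT CV, where the libraries that stood apart lie, against 0.14 in female WT, -0.08 in female cKO and -0.08 in male cKO CV. Of 12 clock genes, Nr1d1, which encodes a repressor of the clock, was called lower in female WT CV (-0.57, edgeR adjusted p = 0.0498), where the list's median was -0.29, and none was called in the other leptin comparisons. In LV no gene of these 4 lists was called, and within the insulin-treated males Trim63 alone was called, higher with leptin (1.15).

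The insulin pellet was compared within male WT CV, in 1 fit of 24 mice. Insulin mice all carry numbers in the 300s or 400s, so the pellet and that series cannot be told apart. With leptin, insulin against none gave 0 called of the 9, where 0.363% of all tested genes were called, and Hsd11b1 alone had an unadjusted p below 0.05 (0.25, edgeR adjusted p = 0.241), as 16.6% of all tested genes did. Hsd11b1 had 46.4 to 79.9 TPM with leptin and insulin and 36.3 to 67.4 TPM with leptin alone. Sgk1 was at -0.59, Dusp1 at -0.53 and Tsc22d3 at -0.40, and without the 4 libraries that stood apart these were -0.11, 0.07 and -0.06. Hsd11b1 was at 0.37 without them (edgeR adjusted p = 0.119), where 0 of the 9 and 0.659% of all tested genes were called. With PBS, insulin against none gave 0 called of the 9 and 0% of all tested genes, and none of the 9 had an unadjusted p below 0.05, which 6.56% of all tested genes had. The values there ran from -0.29 for Tsc22d3 to 0.17 for Hsd11b1 (0.165 before rounding).

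Leptin against PBS within the insulin mice gave 0 called of the 9, where 0.558% of all tested genes were called and 15.5% had an unadjusted p below 0.05. Fkbp5 (0.77, edgeR adjusted p = 0.134), Zbtb16 (0.69, adjusted p = 0.229) and Klf15 (0.69, adjusted p = 0.235) were the 3 of the 9 below an unadjusted 0.05, and Tsc22d3 was at 0.70, Dusp1 at 0.62 and Sgk1 at 0.61. Without the 4 libraries that stood apart, Fkbp5 was at 0.54 and Klf15 at 0.48, both still below an unadjusted 0.05, while Zbtb16 was at 0.39, Tsc22d3 at 0.36, Dusp1 at 0.16 and Sgk1 at 0.13. Fkbp5 had 23.8 to 46.5 TPM with PBS and 51.8, 54.2, 33.1, 53.6, 56.1 and 105 TPM with leptin, so that leptin replicate 3 alone lay within the PBS range. In Sgk1 replicate 6 had 278 TPM and the next mouse 102 TPM, and in Dusp1 183.02 and 65.8 TPM. The interaction of leptin and insulin gave 0 called of the 9, 0% of all tested genes called, and none of the 9 below an unadjusted p of 0.05, where 9.31% of all tested genes were, with values from -0.56 for Sgk1 to 0.14 for Fkbp5. Without the libraries that stood apart Sgk1 was at -0.08 and Fkbp5 at -0.02, and the 9 ran from -0.23 for Zbtb16 to 0.23 for Tsc22d3. The leptin and PBS mice without insulin serve in these contrasts as well as in the leptin comparison of male WT CV.

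Genotype was compared in mice with PBS. In females 0 of the 9 genes were called in cKO against WT CV, and 0% of all tested genes, while 5 of the 9 had an unadjusted p below 0.05 against 9.92% of all tested genes. All 5 were lower in cKO, with Tsc22d3 at -0.62, Sgk1 at -0.50 (SE 0.110, edgeR adjusted p = 0.317), Zbtb16 at -0.50, Klf15 at -0.42 and Klf9 at -0.34. Sgk1 had 54.3, 49.6, 84.1 and 62.1 TPM in the 4 cKO mice and 79.5 to 101 TPM in the WT mice, and the lowest pair were again the mice of the 100s. In males 0 of the 9 and 0% of all tested genes were called, and none of the 9 had an unadjusted p below 0.05, which 5.26% of all tested genes had, with values from -0.26 for Tsc22d3 to 0.04 for Dusp1.

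Between the sexes, 2 of the 9 genes were called in WT CV with PBS, where 7.96% of all tested genes were. Zbtb16 was lower in males, with 6.82, 7.64, 5.18, 5.92 and 7.95 TPM against 16.7, 18.2, 16.7, 19.9 and 28.4 TPM in females and no overlap (-1.33, SE 0.147, edgeR adjusted p = 0.00018). Hsd11b1 was higher in males, with 54.8 to 72.1 TPM against 42.7 to 65.0 TPM (0.51, SE 0.0879, adjusted p = 0.0018). These ranges overlapped, and the call was lost on log2(TPM + 1) with limma (0.26, adjusted p = 0.0817), a fit that called Klf15 (-0.57, adjusted p = 0.00326) and Tsc22d3 (-0.56, adjusted p = 0.0137) lower in males. The Hsd11b1 value also fell below the minimum fold change without female PBS replicate 1 (0.47), female PBS replicate 3 (0.46) or male PBS replicate 1 (0.46), which left 1 of the 9 called. Skeletal muscle markers were at 50208 to 61954 TPM in males and 23715 to 51563 TPM in females, and their part in these differences was not tested. Nr3c1 was at -0.26, below the minimum fold change, and the other 6 had adjusted p from 0.0753 to 0.978.

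Whether leptin acted differently by sex or genotype in CV was tested by interaction. For sex, 0 of the 9 and 0% of all tested genes were called, and 7 of the 9 had an unadjusted p below 0.05, all with a higher leptin value in males, where 7.6% of all tested genes did. The largest were Dusp1 (1.23), Sgk1 (1.18) and Tsc22d3 (0.99), with adjusted p from 0.526 to 0.633 over the 7. Without the libraries that stood apart these were at 0.18, 0.24 and 0.32. Zbtb16 (0.80) alone of the 9 then had an unadjusted p below 0.05, and 0 of the 9 and 0.0403% of all tested genes were called. For genotype in females, 0 of the 9 and 0% of all tested genes were called, and 5 of the 9 had an unadjusted p below 0.05, against 6.09% of all tested genes. These 5 were Tsc22d3 (1.17), Sgk1 (1.00), Klf15 (0.92), Zbtb16 (0.82) and Klf9 (0.72), each with a higher leptin value in cKO. The PBS mice of both genotypes enter this interaction as well as the genotype comparison. For genotype in males 0 of the 9 and 0% of all tested genes were called, and none of the 9 had an unadjusted p below 0.05, which 2.64% of all tested genes had, with Dusp1 at -1.09 (SE 0.569, edgeR adjusted p = 1), Sgk1 at -0.52 and Tsc22d3 at 0.06. Without the libraries that stood apart Dusp1 was at -0.02, Sgk1 at 0.44 and Tsc22d3 at 0.75, and again none was called.

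The 10 CV groups were also put in order of their means. For each of the 9 genes every neighbouring pair of groups overlapped, but sorting by mean favours this, so no conclusion is drawn. Groups farther apart in the order did not always overlap. Zbtb16, for example, had 16.7 to 28.4 TPM in female WT with PBS and 5.18 to 7.95 TPM in male WT with PBS. Hsd11b1 ran from 73.7 ± 8.15 TPM in male WT with PBS and insulin (n = 5) down to 28.7 ± 8.15 TPM in female cKO with leptin (n = 4), with female WT with leptin next lowest at 32.3 ± 3.96 TPM. Zbtb16 averaged 21.3 ± 4.42 TPM in female cKO with leptin (n = 4) and 14.5 ± 5.06 TPM in female cKO with PBS (n = 4), the lowest of the female groups, while the highest male group, WT with leptin, averaged 12.1 ± 5.28 TPM (n = 8). Nr3c1 ran from 50.8 ± 7.24 TPM in female WT with PBS to 31.1 ± 4.77 TPM in male cKO with leptin.

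Over the 51 CV libraries Tsc22d3, Sgk1, Klf9 and Klf15 moved closely with one another. These 51 include the 4 that stood apart, which held the highest Sgk1 (278 to 329 TPM) and Dusp1 (183.02 to 224 TPM). The same 4 were also highest in Nfil3 and Nr4a1, which are named below. No correlation was computed without them. Pearson correlations of log2(TPM + 0.1), given as a description over libraries that share tissue, depth and treatment groups, were 0.93 for Tsc22d3 with Klf15, 0.91 for Tsc22d3 with Klf9, 0.88 for Tsc22d3 with Sgk1 and 0.80 for Sgk1 with Dusp1, while the lowest among the target genes were 0.24 for Zbtb16 with Dusp1, 0.39 for Zbtb16 with Sgk1 and 0.39 for Fkbp5 with Dusp1. Nr3c1 had between -0.04 with Sgk1 and 0.42 with Zbtb16, and Hsd11b1 between -0.48 with Zbtb16 and 0.18 with Dusp1. Among 13583 genes, those most like Sgk1 were Nfil3 (0.93), Pim3 (0.93) and Errfi1 (0.93), and those most like Dusp1 were the immediate-early genes Zfp36 (0.88) and Nr4a1 (0.87) with Apold1 (0.87) between them. Tsc22d3 was most like Klf15 (0.93), Ddit4 (0.92) and Klf9 (0.91), Klf15 like Tsc22d3 (0.93), Glul (0.91) and Klf9 (0.91), and Klf9 like Tsc22d3 (0.91), Klf15 (0.91) and Spsb1 (0.90). For Fkbp5 they were Usp54 (0.85), Glul (0.82) and Cep85l (0.81), and for Zbtb16 Igsf3 (0.90), Foxo3 (0.90) and Map3k6 (0.89). Hsd11b1 was most like Gsta3 (0.88) and Cav2 (0.86), and Nr3c1 like Zfp521 (0.90), Cdc42bpa (0.90) and Nfib (0.90). Only Tsc22d3, Klf9 and Klf15 had others of the 9 among these genes.

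Tissues of the same mouse were then compared after subtracting each group's mean from log2(TPM + 0.1), with values permuted within groups, in 27 relations chosen after expression values had been seen. Tsc22d3 in LV and iWAT of 10 mice gave Pearson's r = 0.94 (two-sided exact permutation p = 0.000139, Benjamini-Hochberg adjusted p = 0.00375) and Spearman's rho = 0.96 (adjusted p = 0.00375). Without the 2 mice farthest from the median in LV r was 0.90, within the 5 mice of the 100s it was 0.84 and within the 5 of the 600s 0.97. Dusp1 in the same tissues gave r = 0.83 (exact permutation p = 0.00139, adjusted p = 0.0188) and rho = 0.81 (p = 0.00146, adjusted p = 0.0197), with 0.83 without the same kind of 2 mice, but 0.44 within the 100s and 0.91 within the 600s. Klf15 in CV and LV of 18 mice gave r = 0.69 (permutation p = 0.0141, adjusted p = 0.0763) and rho = 0.77 (p = 0.00515, adjusted p = 0.0463), and r = 0.56 without 2 mice. Nr3c1 in CV and iWAT gave r = 0.82 (exact permutation p = 0.00889, adjusted p = 0.0748) with rho = 0.75 (adjusted p = 0.0911), and Tsc22d3 in CV and LV gave r = 0.59 (permutation p = 0.0111, adjusted p = 0.0748) with rho = 0.58 (adjusted p = 0.0735). Hsd11b1 in CV and iWAT, the pair of tissues in which leptin lowered it, gave r = 0.07 (exact permutation p = 0.835, adjusted p = 0.868) with rho = 0.14 (adjusted p = 0.704). Within the 5 mice of the 100s its r was -0.31, and within the 5 of the 600s 0.82. After adjustment, both r and rho passed 0.05 for Tsc22d3 and Dusp1 in LV and iWAT, and for Klf15 in CV and LV rho alone did.

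**Figure D4:**
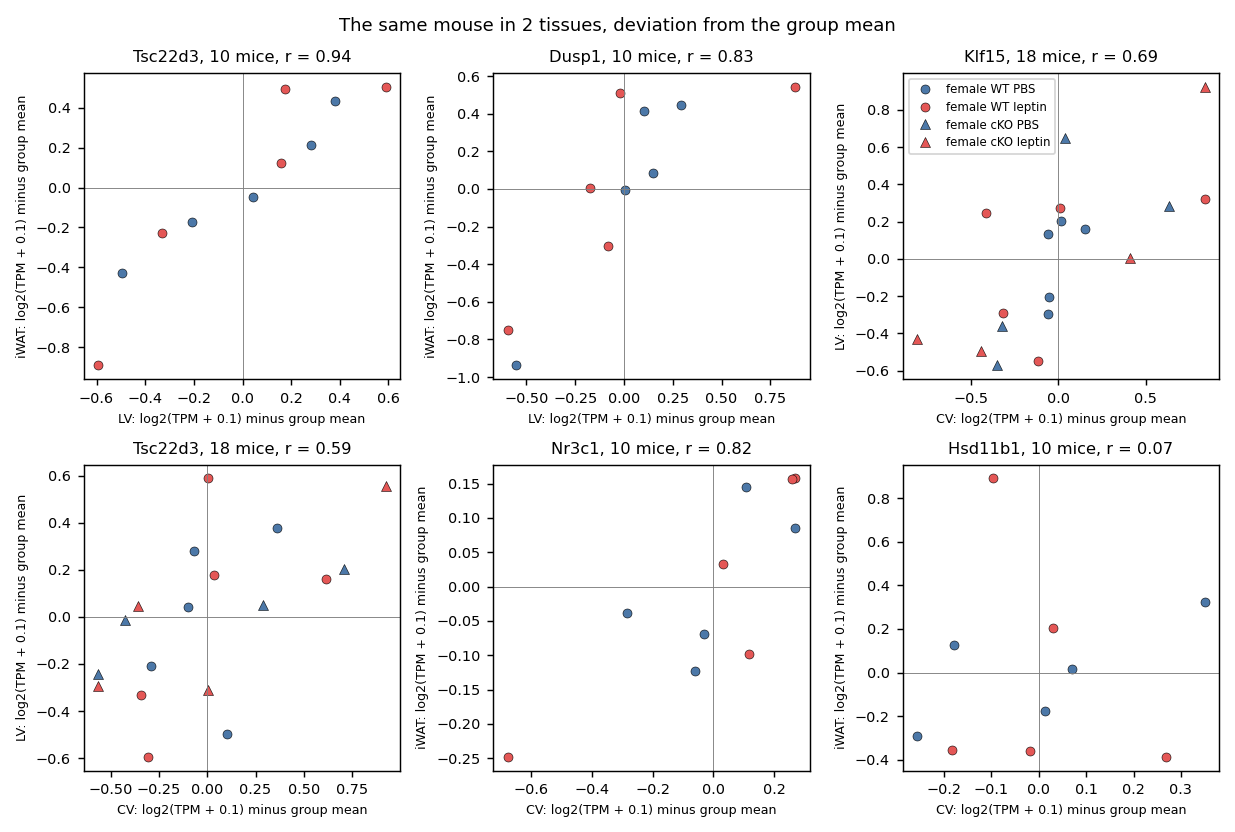
Group-centred log2(TPM + 0.1) of a gene in 2 tissues of the same female mouse, with 1 point per mouse in each of 6 panels. Points for Tsc22d3 in LV and iWAT lie close to a line (r = 0.94, n = 10), and those for Hsd11b1 in CV and iWAT do not (r = 0.07, n = 10).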

How the data were processed

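RNA from CV, LV and iWAT was sequenced in 79 libraries of 51 mice, from paired reads enriched by oligo dT. The authors filtered reads with SOAPnuke, aligned them with HISAT and Bowtie2 to GRCm38.p6 and deposited estimated counts per gene without normalization. The submitters' processing notes also list GRCm39, and the counting tool is not given in the sources used here. The authors also deposited TPM values, which are scaled by transcript length to the same total in each library. Counts were rounded (51 values in 6 genes were not whole), and of 39063 rows with a numeric gene ID 14873 whose mean reached 0.4 TPM were tested. The other rows held no counts.

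Groups from the sample labels were tested by edgeR 4.0.16 in R 4.3.3 (quasi-likelihood, TMM scaling), and p-values were adjusted over all tested genes after Benjamini and Hochberg. A call needed an adjusted p below 0.05 together with a log2 fold change of 0.5 or more in size, and SEs were derived from the F statistic. Each leptin comparison was fitted alone, each interaction on its 4 groups, and the insulin mice in a shared fit with the other male WT mice. Where p-values are given without a tool they come from this test. Correlations used log2(TPM + 0.1) with scipy 1.17.1. Every library is 1 mouse, no pair within a group was a copy (chi-square per gene of at least 11.0), and the step was tested on simulated data.

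The 9 genes were named in every comparison. Of the lists (receptor partners and steroid supply, other glucocorticoid-responsive, immediate-early and clock genes, and markers of adipocytes, skeletal muscle, erythroid cells, neutrophils, macrophages and osteoblasts with osteocytes), called genes of the first 4 were named up to 3 each way, and H6pd and the libraries that stand apart were picked out after their values were seen. The genes and lists were chosen with earlier results of these data known. Alternatives were DESeq2 1.42.0, RLE size factors, no filter, limma 3.58.1 on log2(TPM + 1) or log2(TPM + 0.1), no minimum fold change, replicate or mouse blocks, the mouse number series or muscle markers as a covariate, leaving out each mouse, and a joint fit of the 10 CV groups. Fits within a number series, and those without the 4 libraries that stand apart, were added after the data were seen.

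Samples of 1 number in CV, LV and iWAT come from the same mouse, per the labels. After removal of group means, their profiles correlated at a median of 0.30 between CV and iWAT of female WT mice with leptin. Between the same tissues with PBS the median was -0.0059, and between CV and LV of female cKO mice with leptin it was 0.055. Leptin and PBS mice that share only a replicate number had a median of 0.31 in iWAT. These correlations therefore cannot decide the pairing, which rests on the labels. For each gene the 3 most similar genes over the CV libraries were named, except 1 that is not reported here. Promoter sequences are from RefSeq and exon positions from the GRCm38.p6 annotation.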

Additional observations from a re-analysis of the deposited data

Results flagged for a closer look

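In 11 of 144 sets of a gene and a group, the highest mouse was separated from the rest by more than Dixon's 95% limit, where chance gives about 1 in 20. Of these, 4 belonged to male WT leptin with insulin replicate 6, which had 105 TPM of Fkbp5 (next 56.1 TPM), 934 TPM of Tsc22d3 (next 408 TPM), 278 TPM of Sgk1 (next 102 TPM) and 183.02 TPM of Dusp1 (next 65.8 TPM). Another 3 belonged to the CV of female WT leptin replicate 3, with 34.2 TPM of Zbtb16 (next 15.7 TPM), 135 TPM of Sgk1 (next 80.5 TPM) and 60.1 TPM of Klf15 (next 33.8 TPM). Female WT PBS replicate 5 had 28.4 TPM of Zbtb16 in CV (next 19.9 TPM), and male cKO PBS replicate 5 had 42.9 TPM of Fkbp5 (next 26.3 TPM). In LV, Dusp1 had 39.1 TPM in female WT leptin replicate 4 (next 20.9 TPM) and 28.3 TPM in female cKO leptin replicate 4 (next 22.4 TPM). The 3 male WT leptin mice with high Sgk1 and Dusp1 were not among these sets, since they do not stand apart from one another.

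The leptin effect on Hsd11b1 in female WT mice differed by tissue in a test of the difference itself, at -1.30 on the log2 scale for iWAT against CV and at 0.88 for LV against CV (edgeR).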

How the results depend on the processing

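Of the 9 genes, the number called with leptin in male WT CV was 0 and became 3 with DESeq2, 1 with the replicate block, 1 with the mouse number series as covariate, 1 in a single fit of all CV groups and 5 within the 600s mice, while in female WT CV the 1 call became 0 within the 100s mice. The shares of all tested genes called by DESeq2, the block, the covariate and the single fit are not given here. In iWAT the 1 call with leptin became 1 to 3 when each mouse was left out, and between the sexes the 2 calls became 1 to 2. For iWAT against LV, limma on log2(TPM + 1) or log2(TPM + 0.1) called 9 in place of 4. All tested genes had a median of 0.71 there on log2(TPM + 1). The interaction of leptin with iWAT against CV gave 3 in place of 1 with the mouse as a replicate block and 1 to 2 when each mouse was left out. The causes of these changes were not tested. Another 467 recomputed counts stayed within 1.5 times, among them 0 for DESeq2 and limma wherever else edgeR called 0. Of the single values called, 301 kept direction and call, 13 kept direction only and 0 turned sign. Replicate numbers do not pair PBS with leptin mice, since per the labels they belong to different mice. Correlations between mice of the same replicate number were not all above 0.1 in any group, and in male WT CV they ran from -0.25 to 0.13. Fits within a number series rest on as few as 2 mice a group.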
